A study of Mus musculus with 11 samples.

Results

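The *Ifi200* genes are the interferon-inducible PYHIN genes that lie side by side on mouse chromosome 1, and 9 of them were followed here: *Ifi203*, *Ifi204*, *Ifi205*, *Ifi207*, *Ifi209*, *Ifi211*, *Ifi213*, *Ifi214* and *Mndal*. They were listed by name, with earlier results of these data known, and all 9 were among the 19058 genes of the deposited table of estimated counts. Other PYHIN genes of that table are not in the list and are described further on. RNA had been sequenced from 1 whole lacrimal gland, the tear gland, of each of 11 male NOD mice, an inbred strain in which males develop spontaneous lymphocytic inflammation of this gland. The mice were 3 wild-type (WT) NOD/ShiLtJ animals, 5 *Tlr7* KO animals and 3 *Ifnar1* KO animals. WT and *Tlr7* KO mice were 20 to 22 weeks old, and the age of the *Ifnar1* KO mice is not given in the sources used here. The *Tlr7* KO line carries a small Cas9-made deletion in the gene of Toll-like receptor 7, an endosomal sensor of single-stranded RNA, and the *Ifnar1* KO line is homozygous for an edited allele (em16) of a subunit of the type I interferon receptor. The authors had left out a further *Ifnar1* KO sample as an outlier, because both its expression profile and the inflammation score of its gland resembled WT. The 3 *Ifnar1* KO mice are thus a group kept after that choice. This bears on each *Ifnar1* KO value below. Both lines are NOD and lack their gene in every cell, so no result below is tied to a cell type by the design.

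PYHIN proteins combine, in most members, a pyrin domain, through which proteins assemble, with a HIN-200 domain, which binds DNA. Aim2, the best known relative, senses DNA in the cytosol and builds an inflammasome, and Ifi204 (p204) is a DNA sensor that acts with STING to induce type I interferon. The genes are known targets of interferon, are used mostly by leukocytes, and differ in number and sequence between inbred strains, while the reference sequence is that of C57BL/6J.

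In the GENCODE M21 annotation (GRCm38) the 9 genes spanned chr1:173519717-174031810, a stretch of 512094 bp. *Mndal* is annotated from 173849126 to 173942491, across *Ifi211* and into *Ifi203*, and 37 exonic bases belonged to both *Mndal* and *Ifi203*. The genes are near copies of one another over part of their length. Of all stretches of 31 bases in the annotated transcripts of *Ifi211*, 78.9% also occurred in a transcript of another gene, and 49.5% occurred in *Ifi205*. For *Ifi209* that share was 47.2%, nearly all of it with *Ifi214* (46.8%). It was 34.6% for *Ifi204*, 28.7% for *Mndal*, 26.6% for *Ifi213*, 22.1% for *Ifi205*, 21.9% for *Ifi203*, 20.7% for *Ifi214* and 14.8% for *Ifi207*. Reads from these stretches can be divided between genes in more than one way, so each level below is uncertain to that extent, for *Ifi211* and *Ifi209* above all by this measure.

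The sequences just upstream of the genes are shown because the interferon-stimulated response element is the DNA site bound by the factors that this type I interferon receptor activates. Its core was searched as GAAA, any 2 bases, GAAA, on both strands of the RefSeq promoter windows (GRCm38.p6), which run from 250 bases before to 50 bases after each annotated start. A window was given for 8 of the 9 members, *Ifi204* having no entry, and 7 of those 8 held the core in at least 1 window. Of all 27025 gene symbols 3.99% held it in at least 1 window, and of all 32851 windows 3.44% did. The stretches below, 70 bases each, are written 5′ to 3′ along the gene, with the core in capitals.
*Ifi203*, chr1:173942498-173942567, minus strand: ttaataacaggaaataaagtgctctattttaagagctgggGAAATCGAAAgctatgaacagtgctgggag
*Ifi205*, chr1:174031860-174031929, minus strand: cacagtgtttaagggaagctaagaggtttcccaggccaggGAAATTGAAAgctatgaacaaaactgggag
*Ifi207*, chr1:173741821-173741890, minus strand: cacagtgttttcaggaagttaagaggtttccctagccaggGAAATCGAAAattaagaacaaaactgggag
*Ifi211*, chr1:173913054-173913123, minus strand: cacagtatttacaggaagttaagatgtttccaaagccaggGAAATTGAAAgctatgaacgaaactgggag
*Ifi213*, chr1:173599316-173599385, minus strand: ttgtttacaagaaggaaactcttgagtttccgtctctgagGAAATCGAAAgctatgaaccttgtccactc
*Ifi214*, chr1:173536007-173536076, minus strand: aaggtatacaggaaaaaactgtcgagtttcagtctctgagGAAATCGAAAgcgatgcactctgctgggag
*Ifi209*, chr1:173630789-173630858, plus strand, no match: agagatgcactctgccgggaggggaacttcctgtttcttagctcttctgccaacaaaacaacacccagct

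The core began 35 to 41 bases before the start in *Ifi203*, *Ifi207* and *Ifi211*, at -73 and -79 in *Ifi213* and *Ifi214*, and at -134 in *Ifi205*. *Ifi205* also had a match on the reverse strand at 24 bases after the start. The stretch of *Mndal* around its match at -36 was identical to that of *Ifi203* at 70 of 70 positions. It lies inside an annotated exon and is not printed. Lined up on the core, the stretches of *Ifi205* and *Ifi211* had the same base at 62 of 70 positions, and those of *Ifi207* and *Ifi214* at 34 of 70. The gamma-activated site, TTCNNNGAA, was in no member's window and in 8.3% of all windows, or at least 1 window of 9.55% of symbols. A match only says that the letters are there, and in *Ifi209* their absence holds for this window alone.

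**Figure D1:**
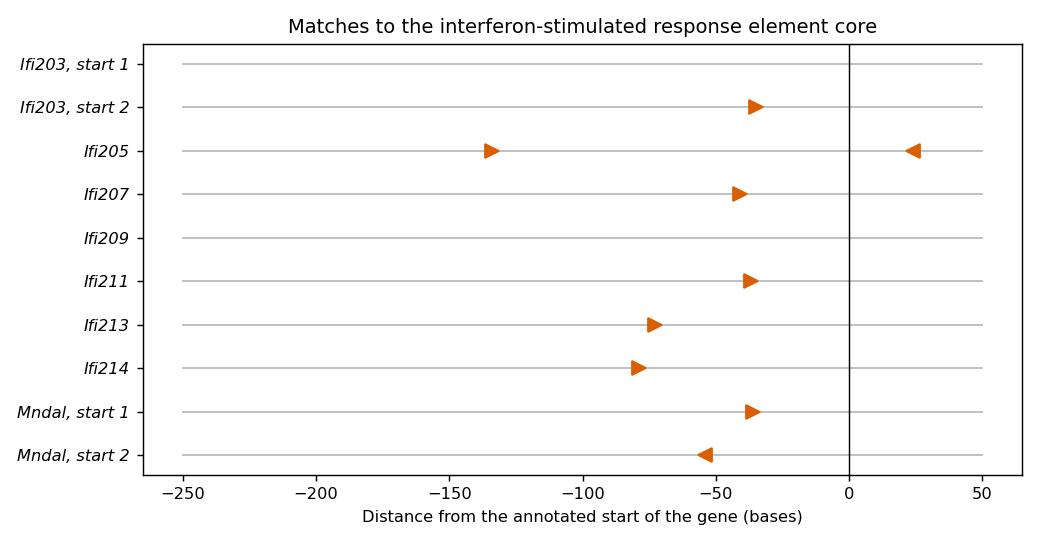
Matches to the interferon-stimulated response element core in the 10 promoter windows of 8 *Ifi200* genes. The x axis is the distance in bases from the annotated start, grey lines are the windows, and triangles point right for a match on the gene's strand and left for one on the reverse strand; 8 of the 10 windows hold a match and that of *Ifi209* holds none.

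Levels are given as CPM, the estimated counts of a gene per 1000000 counts of its library after scaling by TMM (trimmed mean of M-values), which sets libraries to a common level for the bulk of genes. Libraries held 20512315 to 28814250 estimated counts. The *Ifi200* genes were of low abundance: each mouse had 296 to 1499 counts over all 9 genes. Divided by annotated exon length, the WT level was highest for *Ifi203*, at 2.09 ± 1.003 CPM per kb (SD, n = 3). It was followed by *Ifi207* (1.35 ± 0.305), *Ifi205* (1.17 ± 0.443), *Ifi204* (0.911 ± 0.404), *Mndal* (0.825 ± 0.411), *Ifi209* (0.824 ± 0.466) and *Ifi211* (0.644 ± 0.219). From *Ifi203* to *Ifi211*, each gene's WT range overlapped that of the next. *Ifi214*, at 0.0364 to 0.198 CPM per kb, lay below *Ifi211* in all WT mice, and *Ifi213*, at 0.00617 to 0.0360, was the lowest, with 1 to 9 counts per WT mouse.

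The targeted genes were read first. *Tlr7* was at 2.94, 1.52 and 2.71 CPM in WT, at 0.766, 0.783, 0.950, 0.494 and 0.898 CPM in *Tlr7* KO and at 0.613, 0.822 and 0.251 CPM in *Ifnar1* KO. *Ifnar1* was at 15.1, 10.5 and 15.0 CPM in WT, at 9.95, 11.2, 9.38, 8.94 and 8.35 CPM in *Tlr7* KO and at 8.34, 9.08 and 9.63 CPM in *Ifnar1* KO. Both genes were lower in both knockouts, and neither was called different between them, so the levels of these edited but still transcribed genes do not check which knockout a library is. The glands held their tissue's own transcripts, since the summed level of 10 lacrimal acinar and duct markers was 14189 to 26282 CPM over all mice, with none at 0.

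The WT mice were not alike. WT 1 was the highest and WT 2 the lowest of the WT mice in 8 of the 8 members that could be tested, and WT 2 fell inside the *Tlr7* KO range in 6 of them. The summed level of the 9 genes was 46.2 CPM in WT 1, 17.9 in WT 2 and 41.0 in WT 3, against 16.5 to 24.5 CPM in the *Tlr7* KO mice and 12.2 to 18.4 CPM in the *Ifnar1* KO mice. WT 2 also had the lowest summed level of the leukocyte markers *Ptprc*, *Coro1a* and *Laptm5* among WT mice, at 76.99 CPM against 212.8 and 249.3 CPM. Each comparison with WT is therefore also given without this mouse.

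**Figure D2:**
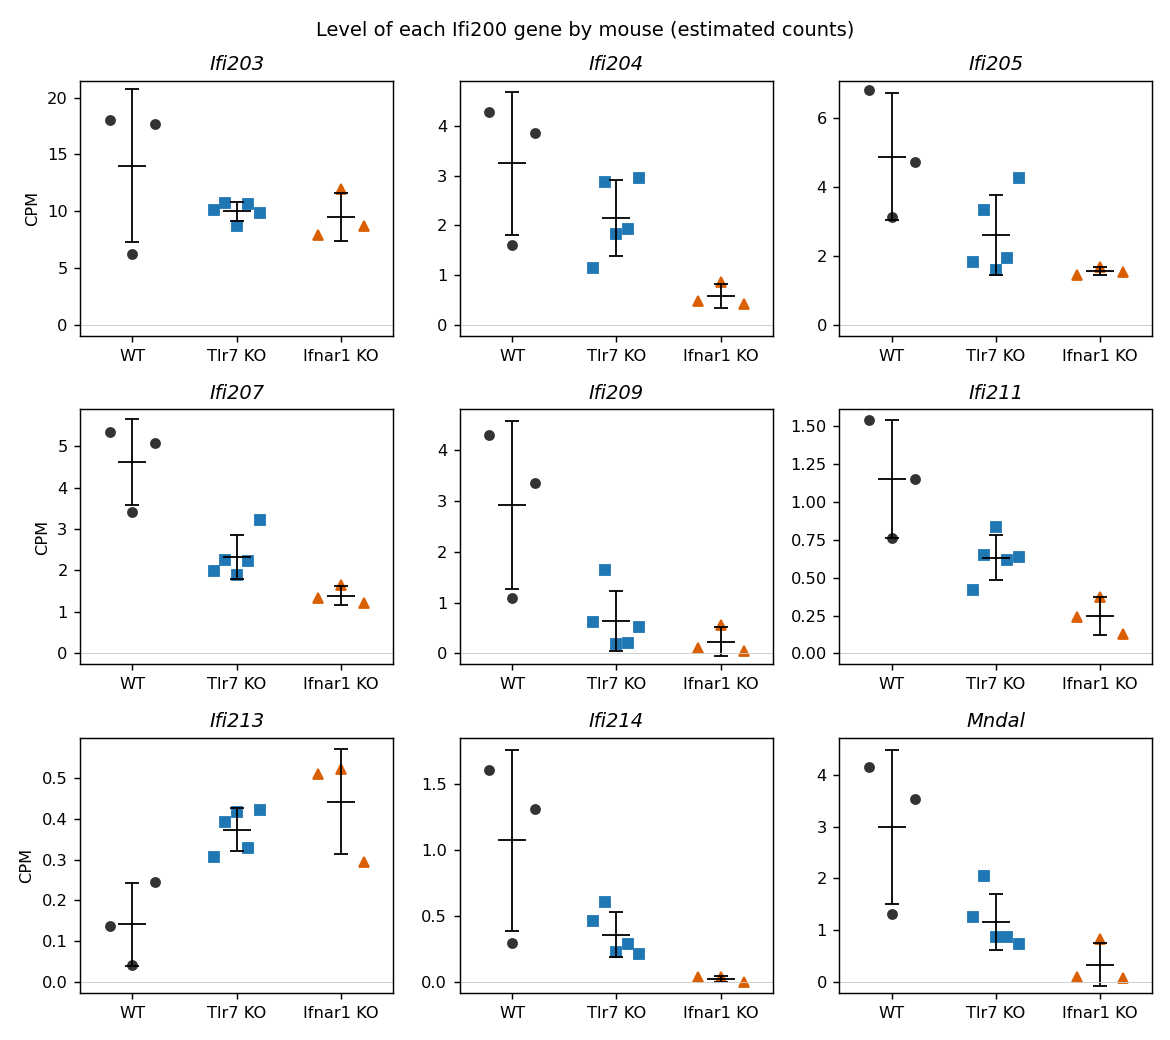
Level of each *Ifi200* gene in CPM on a linear axis, by group. Points are single mice in the order of their numbers from left to right, and the bars are the mean and SD of 3 WT, 5 *Tlr7* KO and 3 *Ifnar1* KO mice; WT 2, the middle WT point, is the lowest WT mouse in every panel, and *Ifi214* is at or near 0 in all *Ifnar1* KO mice.

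The first comparison asked whether the *Ifi200* genes depend on Tlr7. In *Tlr7* KO glands 4 of the 8 testable members were lower than in WT, namely *Ifi207*, *Ifi209*, *Ifi214* and *Mndal*, and 0 were higher. Over all 13937 genes tested, 17.3% were called lower and 15.4% higher. The test was the quasi-likelihood test of edgeR, and a gene was called where its p, adjusted over all genes by the Benjamini-Hochberg method, was under 0.05. *Ifi213* was not tested because its counts summed to under 30 over the WT mice. This filter reads the WT mice alone, so a gene low in WT and higher in a knockout can drop out. The counts of lower and higher genes in each comparison are subject to it, for the members and for all genes. In whole tissue, fewer cells of a type and less RNA per cell cannot be told apart. The leukocyte markers moved with these genes: 3 of 3 were lower, and their summed level was 28.99 to 80.5 CPM in *Tlr7* KO against 76.99 to 249.3 CPM in WT, with none at 0. Of the B cell markers 9 of 9 were lower, with sums of 6.65 to 52.9 CPM against 83.0 to 290.3 CPM, as were 8 of 10 T cell markers and 6 of 14 macrophage and monocyte markers. The part of the leukocyte content in the result was not tested.

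*Ifi207*, a PYHIN gene that is little studied, was the only tested member that was lower with no overlap between the groups, while 14.2% of all genes were lower without overlap. This count, 1 of 8 members, is near that share. *Ifi207* was at 5.34, 3.42 and 5.09 CPM in WT and 1.99, 2.26, 1.90, 2.22 and 3.22 CPM in *Tlr7* KO. Each *Tlr7* KO mouse was thus below each WT mouse, with *Tlr7* KO 5 close to WT 2. The log2 fold change was -1.002 ± 0.21 (SE), with an adjusted p of 0.00774 in edgeR's test. It was still called when any 1 of the 8 mice was left out, with an adjusted p of at most 0.0356. *Ifi213*, at 1 to 11 counts a mouse and not tested, did not overlap in the other direction, with 0.0422 to 0.246 CPM in WT and 0.306 to 0.423 CPM in *Tlr7* KO.

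*Ifi209*, which was named Pyhin1 before, stood at 4.31, 1.10 and 3.36 CPM in WT and at 0.612, 1.65, 0.190, 0.206 and 0.528 CPM in *Tlr7* KO. *Tlr7* KO 2 lay above WT 2 and the other four below all WT mice. The log2 fold change was -2.21 ± 0.64 (SE), with an adjusted p of 0.0267. *Mndal*, named for its likeness to the human gene of the myeloid nuclear differentiation antigen, was at 4.14, 1.31 and 3.53 CPM in WT and at 1.26, 2.04, 0.874, 0.865 and 0.739 CPM in *Tlr7* KO. Here too *Tlr7* KO 2 was above WT 2, and the other four were below all WT mice. Its log2 fold change was -1.37 ± 0.41 (SE), with an adjusted p of 0.0307 in edgeR's test, and the call was lost with all mice in a single fit (adjusted p = 0.0724, range over all alternatives 0.00285 to 0.302).

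*Ifi214* was at 1.61, 0.295 and 1.31 CPM in WT and at 0.459, 0.609, 0.228, 0.288 and 0.211 CPM in *Tlr7* KO, with 4 to 14 counts per *Tlr7* KO mouse. WT 2, with 7 counts, was inside the *Tlr7* KO range. The log2 fold change was -1.58 ± 0.53 (SE), with an adjusted p of 0.0464, or 0.0504 with no gene filter and 0.00280 to 0.368 over all alternatives. The other four members gave estimates below 0 and no call. *Ifi204* had -0.61 ± 0.36 (adjusted p = 0.220), *Ifi203* -0.50 ± 0.28 (0.201), *Ifi205* -0.93 ± 0.35 (0.0697) and *Ifi211* -0.86 ± 0.31 (0.0553), all by edgeR. The median over the 8 members was -0.97, against -0.03 over all genes tested.

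These calls leaned on single mice. Without WT 2, 8 of 8 members were lower, where 24.7% of all genes were. Without WT 1, WT 3 or *Tlr7* KO 1, 3 or 4, 1 member was left, each time *Ifi207*, where 9.38% to 13.8% of all genes were lower, so that the member count was near the background. Without *Tlr7* KO 5, 2 were left, *Ifi205* and *Ifi207*, where 14.8% of all genes were lower.

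The second comparison asked the same of the type I interferon receptor, with the same 3 WT mice, so it is not independent of the first. In *Ifnar1* KO glands 7 of the 8 testable members were lower than in WT and 0 were higher, against 12.2% and 7.69% of all genes. In the same 7 the groups did not overlap, which held for 21.1% of all genes in that direction. The filter on WT counts again left out *Ifi213*. Its estimated counts lay above all WT mice, at 0.293 to 0.523 CPM in *Ifnar1* KO against 0.0422 to 0.246 CPM in WT. In the second count table, described further on, it had 0 counts in *Ifnar1* KO. The median log2 fold change of the 8 members was -2.33, against 0.00 over all genes tested. The leukocyte markers were again lower (3 of 3), with a summed level of 10.8 to 39.5 CPM and none at 0, and 8 of 14 macrophage and monocyte markers were lower, their sum being 80.3 to 211 CPM against 306 to 560 CPM in WT. B cell markers (9 of 9) and T cell markers (8 of 10) were lower too, with up to 3 of the B cell and 2 of the T cell markers at 0 in an *Ifnar1* KO mouse. Their part in the result was not tested.

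*Ifi214* fell the furthest by its estimate. Its counts were 47, 7 and 48 in WT and 1, 1 and 0 in *Ifnar1* KO, so that the *Ifnar1* KO mice lay below the level that 3 counts represent, 0.0820 to 0.158 CPM depending on the library. Over the group, WT had 45.6 times the *Ifnar1* KO level, with a 95% interval from 12.3 to 382 that covers counting error only. The fitted log2 fold change was -5.22 ± 0.98 (SE), with an adjusted p of 0.0229 in edgeR's test.

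*Ifi209* was at 0.102, 0.561 and 0.0419 CPM in *Ifnar1* KO, which is 3, 15 and 1 counts, and its log2 fold change against WT was -3.61 ± 0.83 (SE, adjusted p = 0.0287, edgeR). *Mndal* was at 0.102, 0.822 and 0.0838 CPM, which is 3, 22 and 2 counts, with a log2 fold change of -3.14 ± 0.82 (SE, adjusted p = 0.0382). In both genes *Ifnar1* KO 2 stood well above the other two, and it was the highest of its group in 8 of 8 members. Without this mouse the log2 fold changes were -5.22 for *Ifi209* and -4.94 for *Mndal*, each resting on 1 to 3 counts per *Ifnar1* KO mouse. The gap was narrower for *Mndal* in the second count table, described further on, with 8, 16 and 7 counts in *Ifnar1* KO.

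*Ifi204*, the DNA sensor p204, was at 4.28, 1.60 and 3.85 CPM in WT and at 0.477, 0.860 and 0.419 CPM in *Ifnar1* KO. All 3 *Ifnar1* KO mice were below WT 2. The log2 fold change was -2.47 ± 0.46 (SE), with an adjusted p of 0.0233 in edgeR's test. *Ifi211*, once named Mnda, was at 1.54, 0.759 and 1.15 CPM in WT and at 0.238, 0.374 and 0.126 CPM in *Ifnar1* KO, a log2 fold change of -2.20 ± 0.49 (adjusted p = 0.0270). Its *Ifnar1* KO levels rest on 3 to 10 counts a mouse.

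*Ifi207* and *Ifi205* had the estimates nearest 0 among the 7. *Ifi207* was at 1.33, 1.64 and 1.22 CPM in *Ifnar1* KO, and its log2 fold change was -1.72 ± 0.25 (SE, adjusted p = 0.0212, edgeR). *Ifi205* was at 6.81, 3.12 and 4.73 CPM in WT and at 1.46, 1.68 and 1.55 CPM in *Ifnar1* KO, with a log2 fold change of -1.64 ± 0.30 (adjusted p = 0.0231). The 3 *Ifnar1* KO mice were close to each other in both genes.

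*Ifi203*, the most abundant member, was the exception. It was at 18.1, 6.24 and 17.7 CPM in WT, at 10.1, 10.7, 8.66, 10.6 and 9.82 CPM in *Tlr7* KO and at 7.93, 11.9 and 8.67 CPM in *Ifnar1* KO. WT 2 lay below all knockout mice and the other WT mice above them. The log2 fold change in *Ifnar1* KO was -0.56 ± 0.38 (SE, adjusted p = 0.315, edgeR), and without WT 2 it was called in both comparisons. The second count table gave another picture, described further on.

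Without WT 2, 8 of 8 members were lower in *Ifnar1* KO, where 19.6% of all genes were, and without *Ifnar1* KO 2 the same 7 remained, where 8.48% were. Without WT 1, WT 3 or *Ifnar1* KO 1 or 3, 0 of 8 were called, in fits that called 0 to 81 lower genes in all, while the estimates of the 7 stayed between -5.50 and -1.33.

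The third comparison set the knockouts against each other, to see where the loss of the receptor went further than the loss of Tlr7. *Ifi204* and *Ifi214* were lower in *Ifnar1* KO than in *Tlr7* KO and 0 of 8 members were higher, where 0.918% of all genes were lower and 0.875% higher. *Ifi204* was at 1.15, 2.87, 1.82, 1.94 and 2.96 CPM in *Tlr7* KO, each above the 0.419 to 0.860 CPM of *Ifnar1* KO. Its log2 fold change was -1.86 ± 0.38 (SE), with an adjusted p of 0.0394 in edgeR's test. *Ifi214* had 43 counts over the 5 *Tlr7* KO mice and 2 over the 3 *Ifnar1* KO mice, a level 14.5 times higher in *Tlr7* KO (95% interval 3.78 to 124, counting error only), and a log2 fold change of -3.61 ± 0.79 (adjusted p = 0.0405). 

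*Ifi207* and *Ifi211* did not overlap between the knockouts either, so that 4 of 8 members were lower without overlap, as were 5.47% of all genes. Neither was called: *Ifi207* had a log2 fold change of -0.72 ± 0.22 (adjusted p = 0.142, edgeR) and *Ifi211* of -1.33 ± 0.41 (adjusted p = 0.138). *Mndal* (-1.77 ± 0.67), *Ifi209* (-1.40 ± 0.89) and *Ifi205* (-0.72 ± 0.33) had estimates below 0 with overlapping groups and no call. As each mouse was left out, these ran from -3.56 to -1.32, from -3.005 to -0.674 and from -0.852 to -0.473. *Ifi203* gave -0.07 ± 0.14 in the estimated counts and -1.59 ± 0.46 in the second count table (adjusted p = 0.117, edgeR), with no call in either. The calls of *Ifi204* and *Ifi214* were both lost without *Tlr7* KO 2, 3, 4 or 5 or *Ifnar1* KO 1 or 3. Over the fits with 1 mouse left out, the estimates stayed between -2.234 and -1.675 for *Ifi204* and between -3.948 and -3.17 for *Ifi214*. Without *Tlr7* KO 1 *Ifi204* alone was called, where 0.309% of all genes were lower, and without *Ifnar1* KO 2 *Mndal* was called as well, where 3.65% were. The leukocyte markers were not called different between the knockouts (0 of 3), and their sums, 28.99 to 80.5 and 10.8 to 39.5 CPM, overlapped. All 3 estimates were below 0, with a median of -1.03 beside the members' -1.37. Of the macrophage and monocyte markers 2 of 14 were lower in *Ifnar1* KO and 14 of 14 estimates were below 0, with a median of -0.90. Their sums did not overlap between the knockouts, at 229 to 290.5 CPM in *Tlr7* KO and 80.3 to 211 CPM in *Ifnar1* KO, and the part of these cells in the result was not tested.

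**Figure D3:**
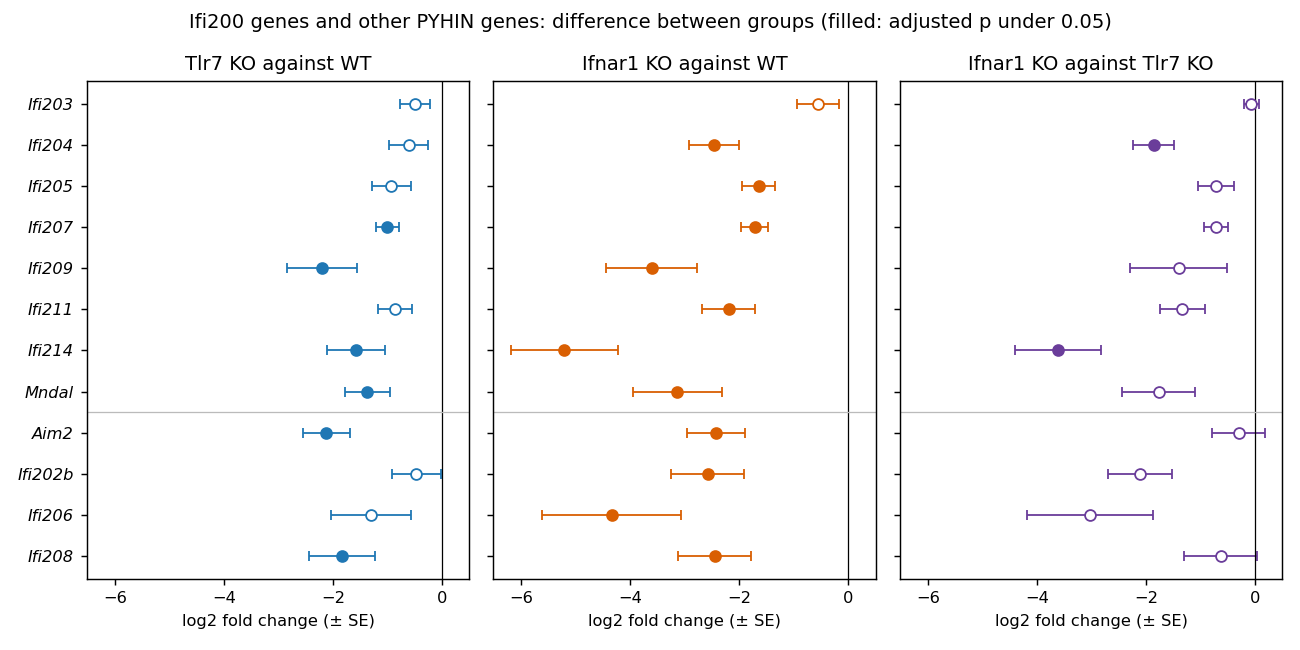
Log2 fold change with its SE for 8 *Ifi200* genes and, below the grey line, 4 other PYHIN genes in the 3 comparisons. Filled points have an adjusted p under 0.05; all estimates lie below 0, with *Ifi214* the lowest in both comparisons of *Ifnar1* KO.

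Set against the leukocyte markers, the members were unequal. The ratio of each gene's CPM to the summed CPM of *Ptprc*, *Coro1a* and *Laptm5* describes the gene beside the leukocyte content and was not tested. Since the marker sum is low in the knockouts, 40.1% of all tested genes lay above all WT mice by this ratio in *Tlr7* KO and 87.0% in *Ifnar1* KO, while 0.682% and 0.969% lay below. *Mndal* was at 1.66% to 1.70% of the marker sum in the 3 WT mice, WT 2 included, at 1.88% to 3.01% in *Tlr7* KO and at 0.484% to 2.08% in *Ifnar1* KO. In the second count table, described further on, it was at 2.31% to 2.98% in WT, 2.81% to 4.08% in *Tlr7* KO and 1.87% to 4.76% in *Ifnar1* KO. Both knockouts thus overlapped WT there. *Ifi214* was at 0.384% to 0.645% in WT, 0.536% to 1.041% in *Tlr7* KO and 0% to 0.161% in *Ifnar1* KO. It lay, with *Ifi209*, below all WT mice in *Ifnar1* KO. For *Ifi209* the separation was slight, at 0.388% to 1.42% against 1.425% to 1.73% in WT, and in the second table the groups overlapped (0.680% to 1.495% against 1.21% to 2.07%). *Ifi214* was at 0% in all *Ifnar1* KO mice there, against 0.161% to 1.03% in WT.

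*Ifi203*, *Ifi204* and *Ifi205* were, like many genes, above all WT mice in both knockouts by this ratio. *Ifi204* was at 1.72% to 2.08% in WT, 2.60% to 7.51% in *Tlr7* KO and 2.18% to 3.88% in *Ifnar1* KO. *Ifi203* was at 7.25% to 8.33% in WT, 13.3% to 29.9% in *Tlr7* KO and 30.2% to 80.2% in *Ifnar1* KO. In the second table *Ifi203* was at 6.58% to 7.18% in WT, 7.90% to 13.6% in *Tlr7* KO and 5.14% to 7.62% in *Ifnar1* KO, and *Ifi204* in *Ifnar1* KO overlapped WT too. For *Ifi205* in *Tlr7* KO the separation was slight, from 4.16% up against at most 4.06% in WT, and the second table overlapped (3.25% to 10.2% against 2.07% to 4.67%). Of the 8 members, 4 in *Tlr7* KO and 3 in *Ifnar1* KO were thus above all WT mice in the estimated counts, and 0 and 2 were below them. The counts of members above all WT mice are near the 40.1% of all genes in *Tlr7* KO and under the 87.0% in *Ifnar1* KO. Those below all WT mice stand beside 0.682% and 0.969% of all genes. Of the 2 below in *Ifnar1* KO, only *Ifi214* did not overlap WT in the second table as well.

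**Figure D4:**
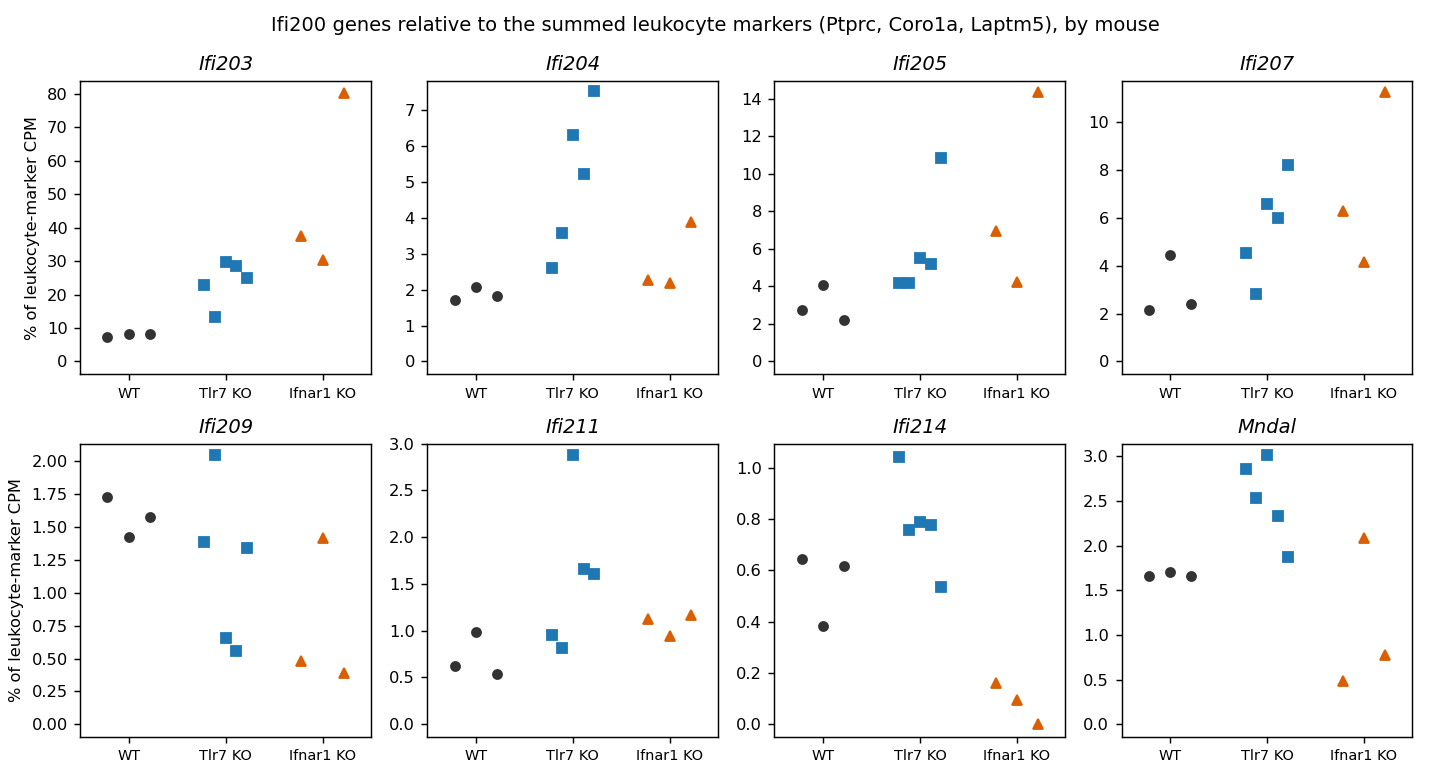
CPM of 8 *Ifi200* genes as a percentage of the summed CPM of 3 leukocyte markers, on linear axes. Points are single mice in the order of their numbers; in *Ifnar1* KO *Ifi214* stays at 0.161% or less, below all WT mice, and *Ifi203* reaches 80.2% in these estimated counts but at most 7.62% in the second table, which is not plotted.

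The 4 other PYHIN genes in the table were read in the same fits. *Aim2* was lower in both knockouts, by -2.12 ± 0.43 (log2, adjusted p = 0.00653) in *Tlr7* KO and -2.42 ± 0.53 (adjusted p = 0.0265) in *Ifnar1* KO, and its estimate between the knockouts was -0.30 ± 0.48. *Ifi202b*, which has no pyrin domain, was at 3.83, 1.35 and 4.02 CPM in WT, at 1.38 to 4.54 CPM in *Tlr7* KO and at 0.209 to 1.05 CPM in *Ifnar1* KO. It was lower in *Ifnar1* KO alone of the 2 knockouts (-2.58 ± 0.67, adjusted p = 0.0376), and its estimate between the knockouts, -2.12 ± 0.58, was not called (adjusted p = 0.109). *Ifi208* was lower in both and *Ifi206* in *Ifnar1* KO, at 0 to 2 counts a mouse. All adjusted p-values here are from edgeR.

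Genes that work in the same pathways were taken from lists chosen with earlier results of these data known. Of 24 interferon-stimulated genes that are no PYHIN genes, such as *Bst2*, a tether of budding virus, and *Parp14*, 0 were lower in *Tlr7* KO, 20 in *Ifnar1* KO and 16 between the knockouts. Over all genes 17.3%, 12.2% and 0.918% were lower in the 3 comparisons, and the counts of this and the next lists are to be read against these shares. *Bst2* stood at 14.9 ± 5.94 CPM in WT, 10.8 ± 3.93 in *Tlr7* KO and 2.65 ± 1.56 in *Ifnar1* KO glands. The list's median log2 fold changes were -0.63, -3.002 and -2.51. Beside them the members had medians of -0.97, -2.33 and -1.37, with 4, 7 and 2 of 8 lower. Of 12 interferon signalling genes 4 were lower and 1, *Irf3*, was higher in *Tlr7* KO, 8 were lower in *Ifnar1* KO and 4 between the knockouts. *Irf7*, a transcription factor that amplifies the interferon response, had a log2 fold change of -4.06 ± 0.55 (SE, adjusted p = 0.0212, edgeR) in *Ifnar1* KO.

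Of 18 DNA-sensing and inflammasome genes, 8 were lower and 1, again *Irf3*, was higher in *Tlr7* KO, 8 were lower in *Ifnar1* KO and 1 between the knockouts. *Tmem173*, which encodes STING, the partner of Ifi204, was at 10.1 ± 4.46 CPM in WT, 3.07 ± 0.982 in *Tlr7* KO and 1.92 ± 0.913 in *Ifnar1* KO. It was lower by edgeR in the first comparison (-1.72 ± 0.33, adjusted p = 0.00528) and in the second (-2.39 ± 0.46, adjusted p = 0.0235). *Trex1*, the exonuclease that degrades cytosolic DNA, was the 1 gene of the list that was lower in *Ifnar1* KO than in *Tlr7* KO (-1.16 ± 0.24, adjusted p = 0.0413).

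Across the 11 mice, the 5 genes outside the family whose log2 CPM followed the mean of the members most closely were *Bcl3*, *Ly6e*, *Ccl5*, *Ms4a6b* and *Cyba*, with Pearson's r from 0.992 to 0.995 among 11487 candidates. These points share their groups and their leukocyte content, and the values are a description. Among the members r with that mean, of which each member is itself a part, was 0.69 for *Ifi203* and 0.89 to 0.96 for the other seven. Of 25 other protein-coding genes that start within the cluster or 500000 bp of its ends, 18 of them olfactory receptor genes, 4 were in the table and 2 could be tested. *Ackr1*, a chemokine receptor of venules and red cells, was lower in *Tlr7* KO (-1.73, adjusted p = 0.0119, edgeR). Its estimate was -1.51 in *Ifnar1* KO (adjusted p = 0.0587) and 0.21 between the knockouts (adjusted p = 0.845), and *Cadm3* was not called.

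A second deposited table, of whole-number counts, gave most members the same picture. By the same test on it, 5 of 8 members were lower in *Tlr7* KO, where 16.6% of all genes were, with *Ifi203* and *Ifi205* called and *Ifi214* not. It gave 7 of 8 in *Ifnar1* KO, where 12.1% were, with *Ifi203* in place of *Ifi211*, and 2 of 8, again *Ifi204* and *Ifi214*, in *Ifnar1* KO against *Tlr7* KO, where 0.920% were. *Ifi214* had 48, 2 and 43 counts in WT, 5 to 9 in *Tlr7* KO and 0 in all 3 *Ifnar1* KO mice.

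*Ifi203* differed between the tables. In the estimated counts it had 528, 148 and 648 counts in WT, 186 to 264 in *Tlr7* KO and 233, 319 and 207 in *Ifnar1* KO. In the second table it had 308, 82 and 374 counts in WT, 43 to 102 in *Tlr7* KO and 22, 51 and 8 in *Ifnar1* KO. The estimated count was 1.71 to 1.81 times the second in WT, close to the 1.64 to 1.84 of whole libraries, but 2.41 to 5.30 times in *Tlr7* KO and 6.26 to 25.9 times in *Ifnar1* KO. In the second table *Ifi203* therefore fell in both knockouts, by -1.47 ± 0.37 (log2, adjusted p = 0.0157) in *Tlr7* KO and -3.05 ± 0.62 (adjusted p = 0.0209) in *Ifnar1* KO in edgeR's test. Over all settings tried, its estimate in *Ifnar1* KO ran from -3.05 to -0.34, with adjusted p-values from 0.0134 to 0.6246.

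*Ifi213* differed as well. It had 4, 1 and 9 estimated counts in WT, 8 to 11 in *Tlr7* KO and 15, 14 and 7 in *Ifnar1* KO, whereas the second table had 1 to 4 counts in WT, 0 or 1 in *Tlr7* KO and 0 in all *Ifnar1* KO mice. With no filter on low counts, the estimated counts gave log2 fold changes of 1.29 ± 0.51 and 1.55 ± 0.64 against WT, neither called (adjusted p = 0.0912 and 0.137, edgeR). No direction is drawn for this gene. *Ifi203* shared 15.9% of its 31-base stretches with the pseudogene *Ifi203-ps*, which had 0 to 5 estimated counts, and *Ifi213* shared 23.3% with *Ifi208*. What in the counting parts the tables was not tested.

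**Figure D5:**
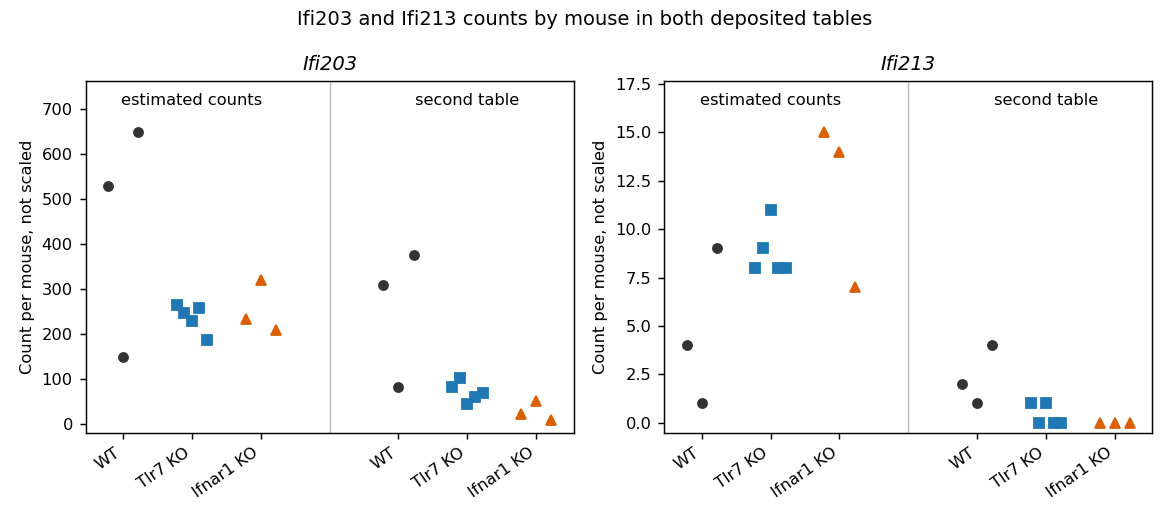
Counts of *Ifi203* and *Ifi213* per mouse, not scaled, on linear axes, in the table of estimated counts (left of the line) and in the second table (right). In *Ifnar1* KO *Ifi203* has 207 to 319 estimated counts but 8 to 51 in the second table, and *Ifi213* 7 to 15 but 0.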

How the data were processed

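The authors' first table holds estimated counts per gene, made with salmon and tximport in bcbio on mm10 and deposited as whole numbers. The deposited name calls them normalized, but they were treated as unnormalized. Library totals differ from 20512315 to 28814250, which alone would not show this. After TMM scaling 3 counts also stood for 0.0820 to 0.158 CPM depending on the library. The deposited second table holds whole-number counts per gene, HISAT2 (2.1.0) being in the submitters' processing notes and the counter not given in the sources used here. Its older symbols were matched by Ensembl ID, and 1 of its sample columns, headed as *Ifnar1* KO, matched no sample and was not used. Whether it is the *Ifnar1* KO sample that the authors left out is not given in the sources used here. Genes with at least 30 estimated counts over the WT mice were tested with edgeR (4.0.16, R 4.3.3): TMM factors over all 11 mice, glmQLFit and glmQLFTest per comparison, Benjamini-Hochberg adjustment. Libraries of a group shared at most 3.11% identical counts over tested genes. DESeq2 (1.42.0), other scalings, filters, the second table, a replicate block and leaving out each mouse were alternatives. Members and lists were chosen with earlier results of these data known. Named genes were the members, other PYHIN genes, the targeted genes, the 5 most alike genes, neighbours, and from each list the most abundant and lowest-p genes. These totals leave low members at a few counts.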

Additional observations from a re-analysis of the deposited data

Results flagged for a closer look

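*Ifi207* in *Tlr7* KO 5, at 3.22 CPM, and *Ifi209* in *Tlr7* KO 2, at 1.65 CPM, stood apart from the other mice of their group by Dixon's test. The gap to the nearest mouse was 0.7264 of the range for *Ifi207* and 0.7112 for *Ifi209*, which only just passed the critical value of 0.71. In all, 9 genes were looked at in the same 5 mice. By chance alone 1 in 20 single looks sets a mouse apart, but looks that share their mice are not independent.

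*Ifi204* and *Ifi214* differed between the knockouts in a direct test, with log2 fold changes of -1.86 and -3.61 in *Ifnar1* KO against *Tlr7* KO. The *Ifi214* value rests on 2 counts over the 3 *Ifnar1* KO mice.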

How the results depend on the processing

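With 3 mice in 2 of the groups and few counts per gene, the calls depended on the settings more than the directions did. The 8 tested members kept their direction against WT under each alternative that tested them, filterByExpr leaving *Ifi214* out in *Ifnar1* KO. The number of members lower in *Tlr7* KO, 4, was 8 with library size as the only scaling, where 30.7% of all genes were lower, and 1 at an adjusted p under 0.01. The number lower in *Ifnar1* KO, 7, was 0 at an adjusted p under 0.01. For this stricter cut no share of all genes is given in any comparison, so its counts have no background beside them. The number lower in *Ifnar1* KO against *Tlr7* KO, 2, was 1 with library size only, 1 with filterByExpr, and 0 with all mice in a single fit, beside 0.373%, 1.06% and 0.301% of all genes, and 0 at an adjusted p under 0.01. With filterByExpr *Ifi214* was not tested in this comparison, so that *Ifi204* was left with no call lost. A single fit of all mice kept 4 members lower in *Tlr7* KO, with *Ifi205* in place of *Mndal*, where 17.4% of all genes were lower. Leaving out each mouse in turn gave 1 to 8, 0 to 8 and 0 to 3. *Ifi203* turned from -0.07 to 0.11 between the knockouts with library size only, and ran from -0.27 to 0.047 as each mouse was left out, above 0 without *Ifnar1* KO 1, with no call. In the second table *Ifi203* had -1.59 ± 0.46 between the knockouts (SE, adjusted p = 0.117, edgeR), also not called. DESeq2 called 5, 7 and 2 members, beside 17.7%, 15.0% and 2.43% of all genes. Scaling by library size alone moved the median of all genes to -0.54, -0.31 and 0.19 and the share of lower among called genes from 52.9%, 61.3% and 51.2% to 97.2%, 96.2% and 30.6%.

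Deviations of same-numbered mice correlated at -0.44 to 0.03 between WT and a knockout. Between the knockouts they correlated at 0.06, 0.34 and 0.26, the last 2 above each pair of unlike numbers (at most 0.07). Since nothing else ties the numbers and 1 of these pairs was near 0, the mice were not treated as paired. With the replicate number as a block, 0, 0 and 3 members were lower, among 13, 0 and 361 genes, against 128 without the block in the last.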
